A study of Mus musculus with 6 samples.

Results

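The nuclear genes that transcribe, copy and protect mitochondrial DNA (mtDNA) were followed through mouse spermatogenesis, as a set of 10 of the 32285 genes counted. They were chosen by their known roles, with earlier results of these data known. Of these, 4 transcribe mtDNA (Polrmt, Tfam, Tfb2m and Tefm), Tfb1m modifies the mitochondrial ribosome's RNA, 3 replicate mtDNA (Polg, Polg2 and Twnk), and the last 2, Lrpprc and Slirp, bind mitochondrial mRNAs. All 10 symbols were found once in the count tables. Whole testes of 8-week-old wild-type C57BL/6 mice (C57BL/6N in the study's methods) had been dissociated to single cells after the animals had been fed, for 2 weeks, a purified diet rich in fat (labelled HFD) or a control diet poor in fat (labelled LFD), and each diet has 3 libraries. No transgene, deletion or other agent was used, and the study's methods state 3 mice per diet. Each library gives UMI counts near the 3′ end of polyadenylated RNA for every cell barcode, a UMI (unique molecular identifier) being the random tag by which copies of one captured molecule are counted once. Levels are given below as UMIs per 1000000 UMIs of the class (CPM), which compare 1 gene between classes and not 1 gene with another, since gene length and the place of priming differ.

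The mammalian mitochondrial genome encodes subunits of the respiratory chain together with the rRNAs and tRNAs needed to translate them, and every protein that transcribes or copies it is imported from the cytosol. POLRMT is the mitochondrial RNA polymerase, TFAM bends promoter DNA and also packs the genome into nucleoids, TFB2M opens the promoter and TEFM keeps the polymerase elongating. Replication uses the polymerase POLG with its accessory subunit POLG2 and the helicase Twinkle, the product of Twnk. LRPPRC and SLIRP form a complex that stabilizes mitochondrial mRNAs. Developing sperm cells lose most of their cytoplasm and much of their mtDNA, and the mouse testis makes a Tfam isoform that lacks the mitochondrial targeting sequence and is found in the nucleus of spermatids.

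The libraries held 48939 barcodes, between 5753 and 11095 each, and between 39196921 and 95845514 UMIs each. Barcodes were placed in 7 germ cell stages and 3 somatic classes by UMIs of marker genes that include none of the 10 genes and no mitochondrially encoded gene, which gave 11884 barcodes (24.3%) with 71.3% of all UMIs. There were 731 spermatogonia, 1115 early meiotic cells, 1317 pachytene spermatocytes, 1264 late spermatocytes, 618 early round, 2700 later round and 3060 elongating spermatids. The somatic classes held 653 Sertoli cells, 262 macrophages and 164 Leydig, peritubular and stromal cells, the last with as few as 5 barcodes in a library. Only 5 of the 11 pachytene markers had their highest level in the pachytene class, so this stage is less sharply marked than the others. Pairs of libraries shared few barcodes (at most 0.32%). Haemoglobin RNA was almost absent from both replicate 1 libraries (at most 0.0209 CPM) and lay between 30.5 and 99.7 CPM in the other 4. For all 6 libraries the diet in the name of the deposited file is the reverse of that in the GEO label, and the numbers of barcodes stated by the study match the file names, so the text below writes "labelled HFD" and "labelled LFD", and every diet difference changes sign if the file names are right.

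The start sites of these genes were searched for 2 motifs, with the courses along the stages described below already known. The motif CCGGAAG, the core of sites for the ETS family factor GABP (also called NRF-2), was found on either strand in the RefSeq promoter windows (GRCm38.p6, 250 bases before to 50 after a start) of 7 of the 10 genes, beside 9.93% of all 27025 genes (8.86% of all 32851 windows, since a gene can have several). It was found for Tfam, Polrmt, Tefm, Twnk, Polg, Polg2 and Slirp. The motif GCGCATGC, part of sites for NRF1, was found on either strand for Polrmt and, after the start, for Tfb2m, beside 3.05% of all genes (2.71% of all windows). The 2 motifs did not overlap in the Polrmt window. A match describes letters only, and no binding was measured here. The windows are shown 5′ to 3′ on the gene's strand, with CCGGAAG or its reverse complement CTTCCGG in capitals.
Tfam, chr10:71238074-71238102, minus strand, motif 47 bases before the start: cctgccgcggaCCGGAAGtccgggcttcc
Polrmt, chr10:79746607-79746635, minus strand, 43 bases before the start: ccctaagagcgCTTCCGGcagtcgcagaa
Tefm, chr11:80142154-80142173, minus strand, 9 bases before the start: agcacacgaaaCCGGAAGtt
Polg, chr7:79466294-79466322, minus strand, 38 bases before the start: gaggacctcacCCGGAAGtccctctgcac
Polg2, chr11:106779549-106779577, minus strand, 29 bases before the start: cgggtgacgctCTTCCGGgggcgtggtct
Slirp, chr12:87443837-87443865, plus strand, 48 bases before the start: aacagtttggcCCGGAAGcagaactcgaa
Twnk, chr19:45006481-45006509, plus strand, 66 bases before the start: ggagagttttgCTTCCGGagtcaccgcga
The Tfam window lies in the first exon of the longest GENCODE M21 model (71237840 to 71238280), upstream of its coding start at 71237940. The Twnk window belongs to the second of its listed promoters, and Slirp and Twnk held further copies of the motif. It lies inside the Twnk gene model (from 45005663), near the start of Mrpl43 on the opposite strand (45006442). The Slirp window lies inside the model of Alkbh1 on the opposite strand (87425840 to 87444017). To which gene of such a pair a match belongs was not tested. Lrpprc, Tfb1m and Tfb2m had no CCGGAAG in these windows. Of the genes with it, Polrmt, Tefm, Twnk, Polg and Polg2 fell from pachytene to later round spermatids, and Tfam and Slirp rose. Of those without it, Lrpprc and Tfb2m fell and Tfb1m rose. A link between the motif and the course of a gene was not tested.

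Tfam was the member that changed most. In elongating spermatids its level was 1001 ± 233 CPM (SD, n = 6), with a lowest library of 576, a median of 1062 and a highest of 1264. Later round spermatids held 90.7 ± 18.8 CPM (67.2, 89.2 and 116), spermatogonia 88.2 ± 9.88 CPM (75.6, 86.9 and 103) and early meiotic cells 71.9 ± 15.1 CPM (54.8, 69.9 and 94.2). The lowest levels were 25.4 ± 8.06 CPM in pachytene cells, 21.3 ± 9.91 in late spermatocytes and 19.6 ± 6.96 in early round spermatids. Every library had its highest Tfam level in elongating spermatids, and the ranges of later round spermatids and spermatogonia overlapped, as did those of the 3 lowest stages. The library with 576 CPM was the replicate 2 labelled HFD. Per 1000 barcodes the elongating spermatids gave between 10350 and 22590 Tfam UMIs, and later round spermatids between 2354 and 5093.

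**Figure D1:**
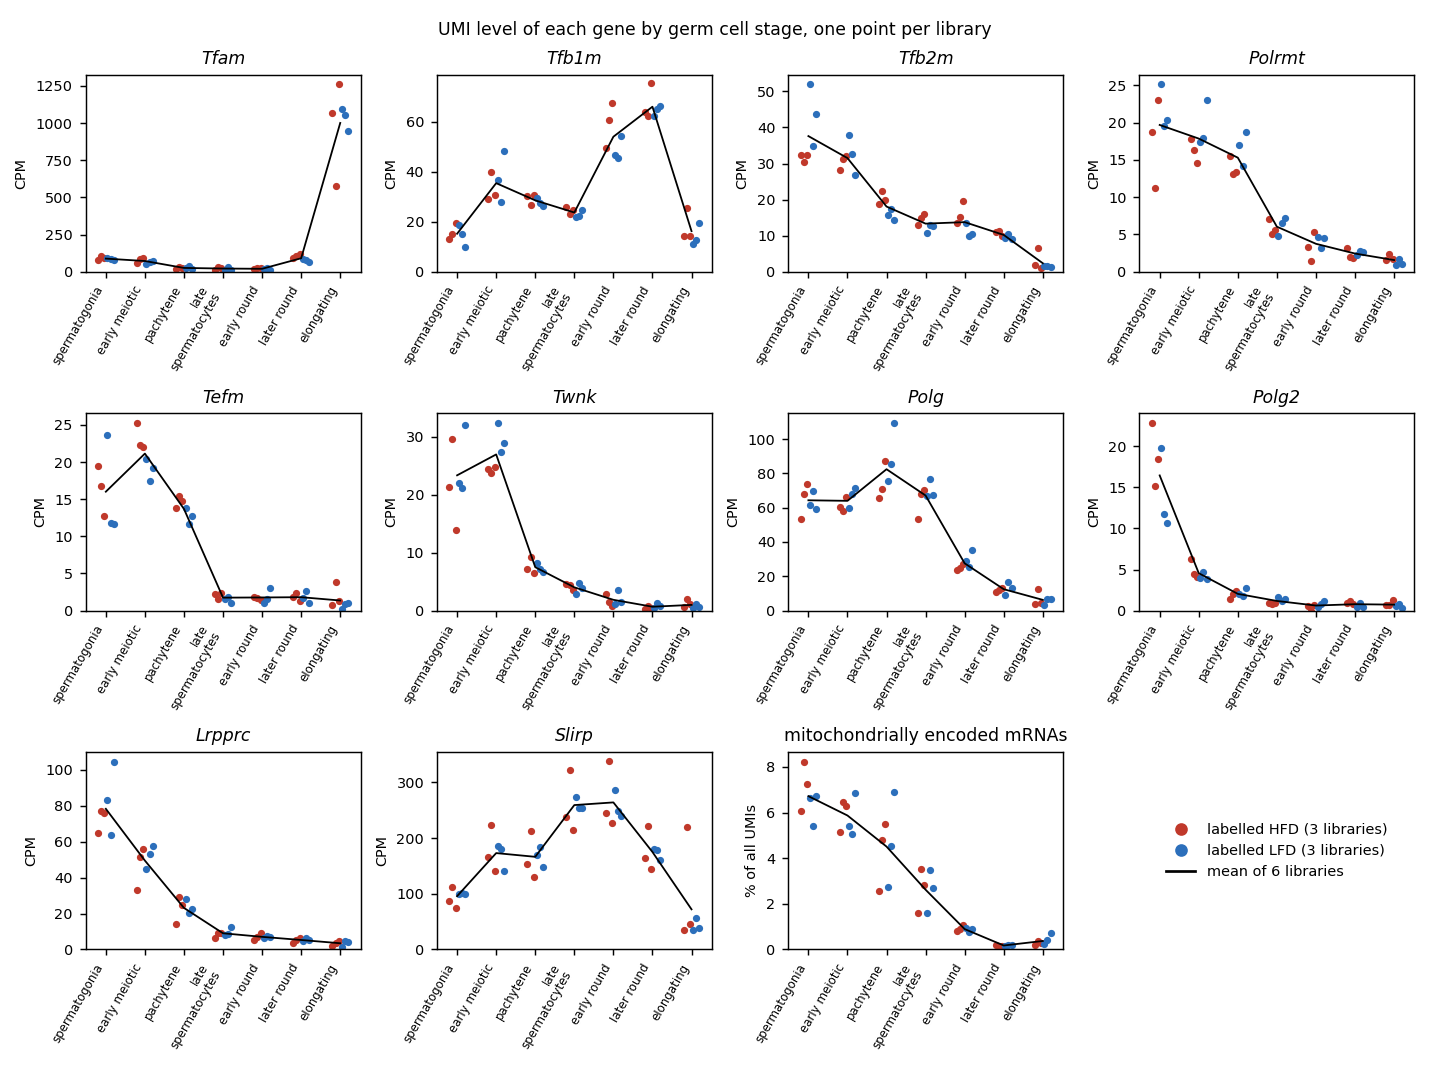
Level of each of the 10 genes (CPM, linear axes from 0, a different scale in each panel) and share of the mitochondrially encoded mRNAs (% of all UMIs) in 7 germ cell stages, with a point per library and a line through the mean of 6 libraries. Tfam is highest in elongating spermatids (mean 1001 CPM), while most of the other genes and the mitochondrially encoded mRNAs are highest before the spermatid stages.

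The 3 stage steps were tested with edgeR's quasi-likelihood test on UMI sums per stage and library, with the library as a block and scaling by trimmed mean of M values (TMM). P-values were adjusted over all 16770 genes by the Benjamini-Hochberg method. Tfam fell by 1.20 on the log2 scale (SE 0.24, edgeR adjusted p = 1.94e-05) from spermatogonia to pachytene cells. It rose by 2.32 (SE 0.24, edgeR adjusted p = 5.56e-12) from pachytene cells to later round spermatids and by 4.37 (SE 0.25, edgeR adjusted p = 1.24e-18) from there to elongating spermatids. On total UMIs without TMM the 3 steps were -1.82, 1.86 and 3.50, and on UMIs per barcode -0.46, 2.04 and 2.52, and only the first step lost its call, on UMIs per barcode (edgeR adjusted p = 0.0517). Without the replicate 2 labelled HFD the last step was 4.52.

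RNA that leaks from lysed cells is captured in every droplet, and elongating spermatids are rich in RNA of the protamine gene Prm1. Tfam was therefore set beside Prm1. Elongating spermatids gave 16.8 ± 4.22 Tfam UMIs per 1000 Prm1 UMIs (SD, n = 6). Barcodes with few UMIs and no class gave 19.1 ± 4.72, pachytene cells 19.8 ± 4.06, late spermatocytes 17.4 ± 5.27, early round spermatids 16.3 ± 4.12, Sertoli cells 17.3 ± 6.04 and macrophages 17.0 ± 6.31, all with ranges that overlap that of elongating spermatids. Leydig, peritubular and stromal cells gave 29.7 ± 21.2, with a lowest library of 12.8 and a highest of 70.7. Spermatogonia held 43.4 ± 12.4, with all 6 libraries above the highest elongating value of 25.2. Early meiotic cells (27.5 ± 9.43) and later round spermatids (26.0 ± 6.5) had ranges that overlap the elongating one. The free RNA estimate gave 23.0 CPM of Tfam in pachytene cells (25.4 measured), 21.7 in late spermatocytes (21.3) and 21.2 in early round spermatids (19.6). Measured Tfam was above the estimate in 5, 3 and 3 of 6 libraries there. In spermatogonia, early meiotic cells, later round and elongating spermatids it was above in 6 of 6. The part of free RNA in the Tfam of these classes was not tested further. With free RNA subtracted, an estimate chosen after seeing the data, Tfam changed by -3.56, 5.18 and 4.67 at the 3 steps, each with a call. The sizes of -3.56 and 5.18 rest on the small remainder left in pachytene cells. Sertoli cells had a Tfam level of 205 ± 102 CPM and macrophages of 108 ± 58.3 CPM, and no share of free RNA was estimated for these classes.

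**Figure D2:**
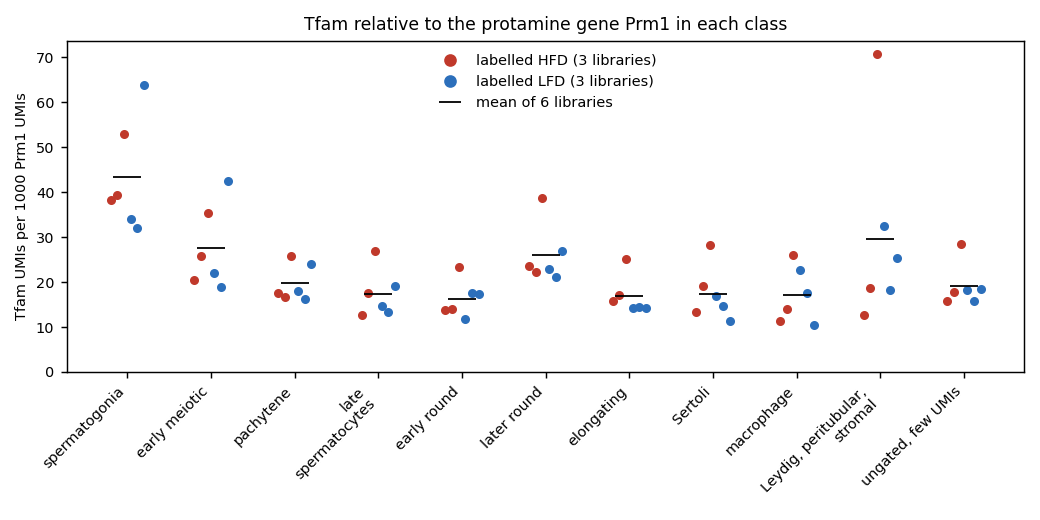
Tfam UMIs per 1000 UMIs of the protamine gene Prm1 in each class, with a point per library and a bar at the mean of 6 libraries. The ranges of all other classes overlap that of elongating spermatids (mean 16.8), and all 6 spermatogonia libraries lie above it (mean 43.4).

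GENCODE M21 lists 5 Tfam transcripts (GRCm38, chr10:71225464-71238280, minus strand). Tfam-203 starts from another first exon (71237458 to 71237678) and its coding sequence starts at 71237000, which leaves 597 coding bases against the 729 of Tfam-201. The annotated 3′ ends differ, at 71225464 for Tfam-201, 71228457 for Tfam-202, 71228512 for Tfam-203, 71228446 for Tfam-204 and 71229116 for Tfam-205. The deposited counts are 1 sum per gene, so the level in elongating spermatids is that of all 5 together.

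Polrmt, the gene of the mitochondrial RNA polymerase, fell between pachytene cells and round spermatids. Its level was 19.7 ± 4.80 CPM in spermatogonia (lowest 11.2, median 19.9, highest 25.2), 17.9 ± 2.86 in early meiotic cells and 15.3 ± 2.22 in pachytene cells (13.1, 14.8 and 18.7). It was 6.04 ± 1.05 CPM in late spermatocytes, 3.74 ± 1.39 in early round, 2.44 ± 0.53 in later round (1.81, 2.46 and 3.20) and 1.56 ± 0.52 in elongating spermatids. The ranges of pachytene cells and late spermatocytes did not overlap, while those of the neighbouring spermatid stages did. From pachytene cells to later round spermatids Polrmt fell by 2.18 on the log2 scale (SE 0.15, edgeR adjusted p = 6.43e-17), and the change was -2.64 without TMM. The other steps, 0.25 and 0.18, did not pass the test, and both depended on the scaling. The first was 1.04 on UMIs per barcode and -0.45 with DESeq2, both with a call, and -0.36 on total UMIs without one. The last was called lower on total UMIs (-0.57) and UMIs per barcode (-1.66), and higher with DESeq2 (0.53) and with stricter gates (0.52).

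Tefm, the elongation factor, dropped at the same point and more abruptly. It stood at 16 ± 4.86 CPM in spermatogonia, 21.1 ± 2.72 in early meiotic cells (lowest 17.5, median 21.2, highest 25.3) and 13.7 ± 1.39 in pachytene cells (11.6, 13.8 and 15.4). From late spermatocytes on the mean stayed between 1.36 and 1.80 CPM. All 6 libraries had a late spermatocyte level (0.96 to 2.32) below the lowest pachytene level. Tefm fell by 2.47 (SE 0.21, edgeR adjusted p = 2.81e-14) from pachytene cells to later round spermatids, and the steps of 0.35 before and 0.17 after did not pass the test and turned to -0.27 and -0.48 on total UMIs. The step of 0.35 passed on UMIs per barcode (1.16) and without the replicate 1 labelled LFD (0.48), and the last was -1.62 on UMIs per barcode, with a call.

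Tfb2m, which opens the promoter, fell at each of the 3 steps. Its level was 37.6 ± 8.51 CPM in spermatogonia (30.5, 33.6 and 52.1), 31.5 ± 3.84 in early meiotic and 18.1 ± 2.88 in pachytene cells, 10.2 ± 0.84 in later round (9.19, 10.2 and 11.3) and 2.35 ± 2.07 in elongating spermatids (1.05, 1.63 and 6.54). The elongating value of 6.54 came from the replicate 2 labelled HFD, in which an estimated 50% of the UMIs of these cells, the highest share the estimate allows, were free RNA. Tfb2m fell, with log2 changes of -0.45 (SE 0.17, edgeR adjusted p = 0.0155), -0.37 (SE 0.16, edgeR adjusted p = 0.0269) and -1.36 (SE 0.19, edgeR adjusted p = 4.15e-08) at the 3 steps. The first turned to 0.31 on UMIs per barcode, the second lost its call with DESeq2 (-0.14) and in leave-one-out fits without the replicates 1 and 3 labelled HFD and 2 labelled LFD (-0.36, -0.32 and -0.36), and the third reached -1.66 without the replicate 2 labelled HFD. The first also lost its call without each replicate labelled LFD (-0.30, -0.40 and -0.37 for replicates 1, 2 and 3).

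Tfb1m, its relative, which methylates the small ribosomal RNA of mitochondria, followed a different course. It was lowest in spermatogonia (15.2 ± 3.64 CPM, with 9.69, 15.1 and 19.6) and stood at 54.0 ± 8.57 CPM in early round and 66.0 ± 4.96 CPM in later round spermatids (62.4, 64.6 and 75.6). Elongating spermatids were back at 16.2 ± 5.44 CPM (11, 14.2 and 25.6). Every library had its highest Tfb1m level in later round spermatids, none of them overlapping the spermatogonia. Tfb1m rose by 1.53 (SE 0.14, edgeR adjusted p = 3.69e-13) to pachytene and by 1.66 (SE 0.11, edgeR adjusted p = 3.66e-17) to later round spermatids, then fell by 1.30 (SE 0.12, edgeR adjusted p = 4.77e-13). The 3 directions and calls held on total UMIs (0.91, 1.20 and -2.05) and on UMIs per barcode (2.32, 1.36 and -3.10).

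Of the replication genes, Polg, which encodes the catalytic subunit of the mtDNA polymerase, was highest in pachytene cells. It was at 64.3 ± 7.55 CPM in spermatogonia, 64 ± 5.26 in early meiotic cells, 82.5 ± 15.7 in pachytene cells (65.8, 80.7 and 110) and 67.1 ± 7.66 in late spermatocytes. It then stood at 27.6 ± 4.13 CPM in early round, 12.5 ± 2.64 in later round (9.05, 12.5 and 16.8) and 6.24 ± 3.31 in elongating spermatids. All 6 libraries were highest in pachytene cells, and the ranges of early meiotic, early round and later round cells, in this order of level, did not overlap. Polg rose by 0.96 (SE 0.11, edgeR adjusted p = 5.72e-10) to pachytene, which was 0.35 without TMM and no longer a call (edgeR adjusted p = 0.0575). It fell by 2.26 (SE 0.11, edgeR adjusted p = 1.68e-21) to later round spermatids. The last step (-0.30, SE 0.12, edgeR adjusted p = 0.0333) was 0.06 with DESeq2 and lost its call without the replicates 1 or 3 labelled HFD (-0.27 and -0.23) or 1 or 2 labelled LFD (-0.30 and -0.27). It was larger and kept its call on total UMIs (-1.01) and UMIs per barcode (-2.10).

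Polg2, the accessory subunit, was highest in spermatogonia, at 16.5 ± 4.75 CPM (10.7, 16.8 and 22.9). Early meiotic cells held 4.55 ± 0.88 CPM (3.85, 4.27 and 6.22), pachytene cells 2.04 ± 0.48 (1.38, 2.01 and 2.76), and the later stages between 0.61 and 1.17 on average. No range of these first 3 stages overlapped another of them. Polg2 thus stood low at the stage where the polymerase that it assists was highest. It fell by 2.49 (SE 0.24, edgeR adjusted p = 3.51e-12) to pachytene and by 0.84 (SE 0.26, edgeR adjusted p = 0.0036) to later round spermatids, the second without a call with DESeq2 (-0.62). The step to elongating spermatids (0.64) did not pass the test and was -0.14 without TMM. It was called higher with DESeq2 (1.00) and stricter gates (1.09) and lower on UMIs per barcode (-1.21). It also passed without the replicate 2 labelled HFD (0.92, edgeR adjusted p = 0.0137).

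Twnk, the gene of the helicase, was at 23.3 ± 6.57 CPM in spermatogonia and 26.9 ± 3.33 in early meiotic cells (23.6, 26.1 and 32.4), and at 7.48 ± 1.07 in pachytene cells (6.48, 7.15 and 9.28). Later round spermatids held 0.66 ± 0.37 CPM (0.36, 0.57 and 1.34) and elongating spermatids 0.98 ± 0.55 (0.37, 0.87 and 1.95). Twnk fell by 0.96 (SE 0.20, edgeR adjusted p = 2.55e-05) and then by 3.14 (SE 0.23, edgeR adjusted p = 1.87e-16). The first change was -0.18 on UMIs per barcode, with no call. The rise by 1.30 (SE 0.30, edgeR adjusted p = 2.23e-04) to elongating spermatids was 0.59 without TMM, with no call, and -0.52 on UMIs per barcode. With free RNA subtracted it was 0.36, with no call. The free RNA estimate for Twnk in elongating spermatids was 0.85 CPM, beside the 0.98 measured.

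Lrpprc and Slirp, whose proteins act as one complex, had different courses. Lrpprc was lower at each later stage, from 78.3 ± 15.0 CPM in spermatogonia (63.7, 76.5 and 105) to 49.5 ± 9.13 in early meiotic cells, 23.1 ± 5.51 in pachytene cells (13.9, 23.7 and 29.0) and 9.0 ± 1.87 in late spermatocytes. Later round spermatids held 5.26 ± 1.00 CPM (3.77, 5.36 and 6.40) and elongating spermatids 3.44 ± 1.37. The first 4 stages did not overlap one another. Slirp stood at 95.7 ± 12.9 CPM in spermatogonia (74.9, 99.3 and 112), 173 ± 31.5 in early meiotic and 166 ± 29.1 in pachytene cells, and was highest at 259 ± 36.6 in late spermatocytes and 264 ± 41.7 in early round spermatids (227, 246 and 339). It was at 175 ± 26.4 in later round and 72.0 ± 73.2 in elongating spermatids (34.2, 42.7 and 220). The elongating value of 220 was again the replicate 2 labelled HFD, and the other 5 lay between 34.2 and 56.9, none of them overlapping later round spermatids.

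Lrpprc fell at the first 2 steps, with log2 changes of -1.14 (SE 0.14, edgeR adjusted p = 1.31e-09) and -1.69 (SE 0.14, edgeR adjusted p = 2.87e-14), the first being -0.36 on UMIs per barcode, with no call. Its last step was 0.02, with no call, and -0.72 on total UMIs and -1.76 on UMIs per barcode, both with a call. Slirp rose by 1.40 (SE 0.14, edgeR adjusted p = 3.29e-12) to pachytene. It rose by 0.55 (SE 0.13, edgeR adjusted p = 2.02e-04) to later round spermatids, which was 0.08 on total UMIs and 0.25 on UMIs per barcode, with no call on either. It fell by 0.82 (SE 0.13, edgeR adjusted p = 7.57e-07) to elongating spermatids, and the change was -1.12 without the replicate 2 labelled HFD.

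**Figure D3:**
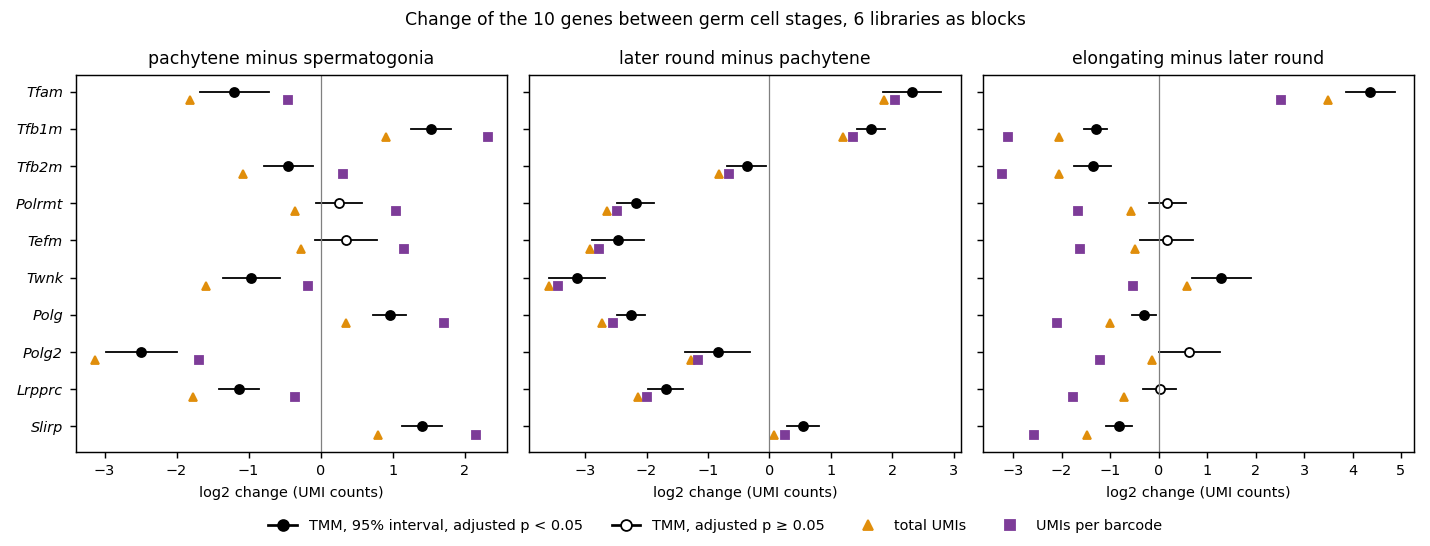
Log2 change of each gene between 3 pairs of stages with its 95% interval (TMM, 6 libraries), filled where the adjusted p is under 0.05, beside the change on total UMIs (triangles) and on UMIs per barcode (squares). The step from pachytene to later round spermatids keeps the sign of every gene under the 3 scalings, while 4 genes of the last step lie at or above 0 with TMM and below 0 on total UMIs.

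From spermatogonia to pachytene, 3 of the 10 genes rose, 5 fell and 2 did not pass the test, beside 36.9% of all 16770 genes that rose and 34.7% that fell. From pachytene to later round spermatids 3 rose and 7 fell, beside 42.9% and 40.5% of all genes. From later round to elongating spermatids 2 rose (Tfam and Twnk), 4 fell (Tfb1m, Tfb2m, Polg and Slirp) and 4 did not pass, beside 33.7% and 31.9%. At the first and last step the counts lie near the background. At the second, with TMM, the members fell at a share above it (7 of 10) and rose at one below it (3 of 10). There 7 also fell on total UMIs (beside 7933 of 16770 genes) and on UMIs per barcode (beside 7258). With DESeq2 5 fell (beside 6231 of 16770 genes). With the stricter gate 6 fell (beside 6084 of 14710), and with free RNA subtracted also 6 (beside 6070 of 16607). The excess over the background was not tested. The median change of the 10 genes was -0.10, -1.26 and 0.10 on the log2 scale at the 3 steps, and that of all genes tested 0.07, 0.07 and 0.09. Scaling moved these medians: for all genes it was -0.55, -0.37 and -0.63 on total UMIs, and 0.82, -0.23 and -1.69 on UMIs per barcode. Members counted as higher and lower at the last step were 1 and 6 on total UMIs and 1 and 8 on UMIs per barcode, and Tfam was the one that rose under both. DESeq2 called 4 higher and 3 lower there. Of all genes called, 51.5%, 51.5% and 51.4% were higher at the 3 steps with TMM, against 36.3%, 43.3% and 23.3% on total UMIs and 68.3%, 46% and 8.15% on UMIs per barcode.

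The 13 mitochondrially encoded mRNAs made up 6.72% ± 0.98 of the UMIs of spermatogonia (SD, n = 6; lowest 5.41, median 6.68, highest 8.24), 5.87% ± 0.765 of early meiotic cells and 4.51% ± 1.66 of pachytene cells (2.56, 4.69 and 6.91). The share was 2.62% ± 0.860 in late spermatocytes and 0.892% ± 0.0985 in early round spermatids. It was lowest in later round spermatids, at 0.173% ± 0.0328 (0.133, 0.166 and 0.216), and 0.371% ± 0.197 in elongating spermatids (0.201, 0.331 and 0.737). From pachytene to later round spermatids the share fell 24.9-fold (mean log2 ratio -4.64, SD 0.583, lower in 6 of 6 libraries, exact sign-flip test p = 0.031, adjusted p = 0.0469 over 3 steps). From there to elongating spermatids it was 1.97-fold higher (mean log2 ratio 0.981, SD 0.614, higher in 6 of 6 libraries, exact p = 0.031, adjusted p = 0.0469). The step from spermatogonia to pachytene had a mean log2 ratio of -0.652 (5 of 6 libraries lower, exact p = 0.0625). The smallest p that 6 libraries allow is 0.031.

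Taken one by one in edgeR, all 13 of these mRNAs fell from pachytene to later round spermatids, with log2 changes from -4.91 to -3.55, and all 13 also fell on total UMIs, on UMIs per barcode and with DESeq2. From spermatogonia to pachytene 1 rose and 3 fell with TMM, while 10 fell on total UMIs and 10 rose on UMIs per barcode. At the last step all 13 rose with TMM, 12 rose on total UMIs, and 3 rose and 1 fell on UMIs per barcode. Barcodes with few UMIs and no class, which hold free RNA and small cells, had 5.80% ± 3.33 of such UMIs. With free RNA estimated at 10.1 to 21.7% of the UMIs of later round spermatids and 10.8 to 50% of elongating spermatids, these barcodes would give a share of 0.740% and 1.18%, above the whole measured share in 6 of 6 libraries at both stages. Free RNA cannot exceed the total, so the estimate is too high for these mRNAs there, and how much of the measured share is the spermatids' own was not tested. In early round spermatids and all stages before, the measured share was above that estimate in 6 of 6 libraries.

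Set against the fall of the mitochondrial mRNAs, the summed level of the 10 nuclear genes was 455 ± 30.3 CPM in spermatogonia, 382 ± 33.9 in pachytene cells and 365 ± 32.6 in later round spermatids, and 1106 ± 162 CPM in elongating spermatids. The sum follows the genes with the most UMIs. In later round spermatids Slirp (175 CPM), Tfam (90.7) and Tfb1m (66.0) held most of it, while 7 of the 10 genes had fallen from pachytene cells. The number of mitochondrial mRNA UMIs per UMI of the 10 genes was 148 ± 17.9 in spermatogonia, 118 ± 43.9 in pachytene cells, 22.8 ± 2.99 in early round, 4.80 ± 1.20 in later round and 3.50 ± 2.10 in elongating spermatids. This ratio changed by -0.400 ± 0.515, -4.57 ± 0.587 and -0.609 ± 0.785 (SD, n = 6) on the log2 scale at the 3 steps. Without Tfam, left out after seeing the data, the last change was 2.63, so the sign of the last change rests on Tfam. Without Lrpprc and Slirp it was -1.47. Of the 3 genes that rose from pachytene to later round spermatids, Tfam and Tfb1m also rose on total UMIs and on UMIs per barcode, and Slirp did not pass there.

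**Figure D4:**
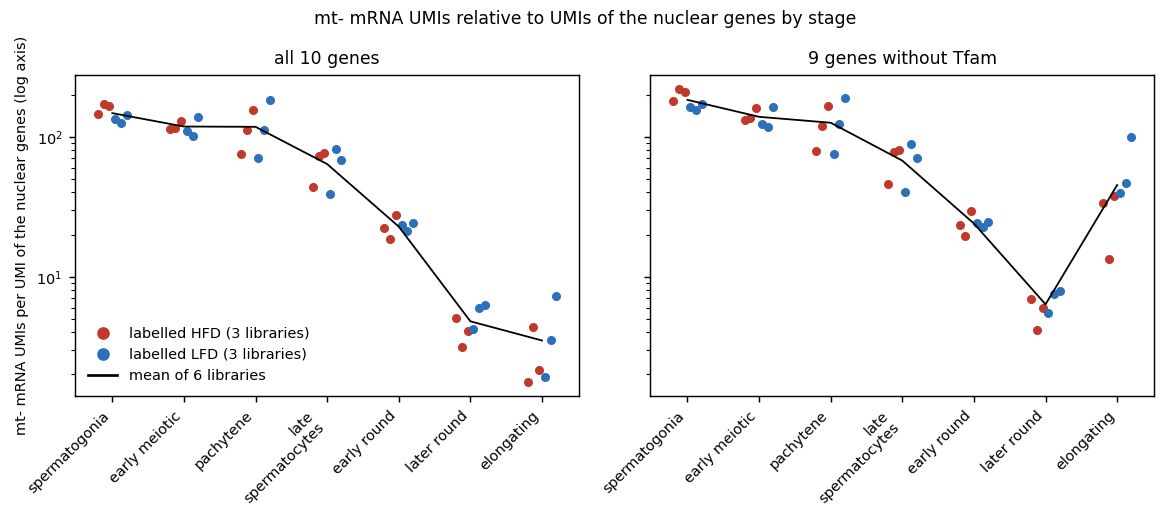
UMIs of the 13 mitochondrially encoded mRNAs per UMI of the nuclear genes (log axis) in 7 germ cell stages, for all 10 genes and for the 9 without Tfam, with a point per library and a line through the mean. The mean ratio of all 10 falls from 148 in spermatogonia to 4.80 in later round and 3.50 in elongating spermatids. The last change differs in sign between libraries (log2 change from -1.51 to 0.48). Without Tfam the elongating libraries lie above the later round ones.

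A list of 49 other genes of mtDNA replication, nucleotide supply, RNA processing and their regulators gives the surroundings of the 10 genes, and 48 of them were tested. From spermatogonia to pachytene 16 rose and 24 fell, beside 36.9% and 34.7% of all genes. From pachytene to later round spermatids 11 rose and 28 fell, beside 42.9% and 40.5%. At the last step 12 rose and 20 fell, beside 33.7% and 31.9%. The medians were -0.43, -0.49 and -0.23 on the log2 scale. On total UMIs the counts were 10 and 29, 10 and 30, and 6 and 31, and on UMIs per barcode 23 and 19, 10 and 28, and 2 and 39. Of all genes called, 36.3%, 43.3% and 23.3% were higher on total UMIs, and 68.3%, 46% and 8.15% on UMIs per barcode. At the last step DESeq2 gave 17 and 13 and stricter gates 16 and 13, with more rises than falls. There 65.9% and 60.7% of all genes called were higher. The largest rises to pachytene were those of Ppargc1a (3.46, SE 0.50), a coactivator of mitochondrial biogenesis, and of Suclg1 (2.17, SE 0.22) and Sucla2 (1.88, SE 0.11), subunits of succinyl-CoA synthetase. The largest falls were those of Hsd17b10 (-6.85, SE 0.40), a subunit of mitochondrial RNase P, of Fen1 (-4.65, SE 0.32), a flap endonuclease that also serves the nucleus, and of Pprc1 (-4.52, SE 0.26), a coactivator related to Ppargc1a.

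From pachytene to later round spermatids Fen1 (2.42, SE 0.32), Clpx (1.83, SE 0.15), which unfolds proteins in mitochondria, and Mterf2 (1.54, SE 0.22), a relative of the mitochondrial termination factor, rose most. Fastkd1 (-5.96, SE 0.26), an RNA-binding protein of mitochondria, Exog (-3.53, SE 0.25) and Mgme1 (-3.48, SE 0.23), both nucleases of mtDNA, fell most. At the last step Fen1 (3.70, SE 0.26), the topoisomerase gene Top1mt (2.59, SE 0.21) and Fastkd1 (1.97, SE 0.42) rose most, and Trmt10c (-2.45, SE 0.20), a subunit of mitochondrial RNase P, Dna2 (-1.96, SE 0.31) and Suclg1 (-1.62, SE 0.21) fell most. All of these kept their call on total UMIs and UMIs per barcode except the last rise of Fastkd1, which was 0.22 on UMIs per barcode and stood at 0.20 and 0.49 CPM in the 2 stages.

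The genes whose course over the 7 germ stages was most like that of Tfam were Retreg1 (Pearson r = 0.994 of log2(CPM + 1) over 7 stages, each the mean of 6 libraries), Naa60 (r = 0.993) and Fscn3 (r = 0.992). Those most like Polrmt were Tpr (r = 0.997), Smim20 (r = 0.996) and Thrap3 (r = 0.996), and those most like Lrpprc were Uqcr11 (r = 0.999), Ecpas (r = 0.999) and Taf1d (r = 0.999). The stages share their libraries, and with 7 points such values are common: 109 genes had r above 0.95 with Tfam, 985 with Polrmt and 981 with Lrpprc. They are given as a description with no test.

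In the somatic classes the counts of most members were low. Lrpprc was at 25.5 ± 9.49 CPM in Sertoli cells, against 10.7 ± 2.37 CPM in those barcodes. Polg was at 37.2 ± 21.6 CPM in macrophages (0 to 56.9) and 39.6 ± 11.7 in the barcodes with few UMIs. Polg2 was at 12.1 ± 9.71 CPM in Sertoli cells, with 0 in one library and 27.5 in another, and at 1.97 ± 0.51 in the barcodes with few UMIs. The mitochondrial mRNAs made up 11.7% ± 7.30 of the UMIs of Sertoli cells and 2.25% ± 0.744 of those of macrophages, against 5.80% ± 3.33 in the barcodes with few UMIs.

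The comparison by diet was made here on whole-testis sums and in each class with at least 20 barcodes in every library. It again used edgeR, labelled HFD minus labelled LFD. The study itself had used DESeq2 on its own cell clusters and on the bulk. No member was called in the whole testis (0 of 10, with 0% of 20727 genes called) or in any of the 9 classes tested, where again 0% of the genes were called. Over these 10 comparisons 83 pairs of a member and a class passed the filter on low counts, and 3 of them had an unadjusted p under 0.05. They lay in later round spermatids, early round spermatids and spermatogonia, where 4.5%, 7.57% and 2.2% of all genes had such a p. In the macrophages 7 members did not pass the filter. DESeq2 called no member either. It called 2 genes in early meiotic cells and 1 in spermatogonia. In the whole testis 471 genes (2.27%) had an unadjusted edgeR p under 0.05. In a sum over the whole testis, fewer cells of a type and less RNA per cell cannot be told apart.

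In the whole testis the log2 difference of the members ranged from -0.09 (Polg) to 0.50 (Tefm), and the half-widths of their 95% intervals from 0.33 to 0.57. Tefm was at 5.25, 5.93 and 5.65 CPM in the libraries labelled HFD and at 4.32, 5.18 and 2.81 in those labelled LFD (log2 difference 0.50, SE 0.23, edgeR adjusted p = 0.986). Tfb2m was at 11.9, 14.0 and 13.6 against 11.5, 11.2 and 10.3 CPM (0.31, SE 0.15, edgeR adjusted p = 0.986). Tfam was at 295, 200 and 200 against 274, 192 and 148 CPM (0.24, SE 0.26, edgeR adjusted p = 0.986), where both replicate 1 libraries were the highest of their group. Prm1 RNA was also highest in these 2 libraries.

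The smallest p of a member was that of Tfam in later round spermatids. It was at 94.9, 106 and 116 CPM in the libraries labelled HFD and at 83.5, 75.5 and 67.2 in those labelled LFD (log2 difference 0.44, SE 0.12, 95% interval 0.19 to 0.69). With none of the 14643 genes of this class called, the edgeR adjusted p was 0.829. The difference kept its sign without each library (0.38 to 0.54) and was 0.62 without both replicate 1 libraries. The edgeR adjusted p was 0.0704 there, the lowest of its alternatives, which reached 0.999. The free RNA estimate for Tfam in later round spermatids ran from 16.65 to 62.35 CPM over the libraries. Its part in the difference was not tested. Per 1000 Prm1 UMIs, Tfam gave 23.7, 22.4 and 38.6 UMIs in the libraries labelled HFD. Against these, Tfam gave 23.0, 21.2 and 27.0 in those labelled LFD, so the ranges overlapped. In elongating spermatids its levels were 1069, 576 and 1264 against 1098, 1056 and 945 CPM (log2 difference -0.21, SE 0.45). The other 2 pairs were Tfb2m in early round spermatids (0.45) and Tfb2m in spermatogonia (-0.48), of opposite sign.

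**Figure D5:**
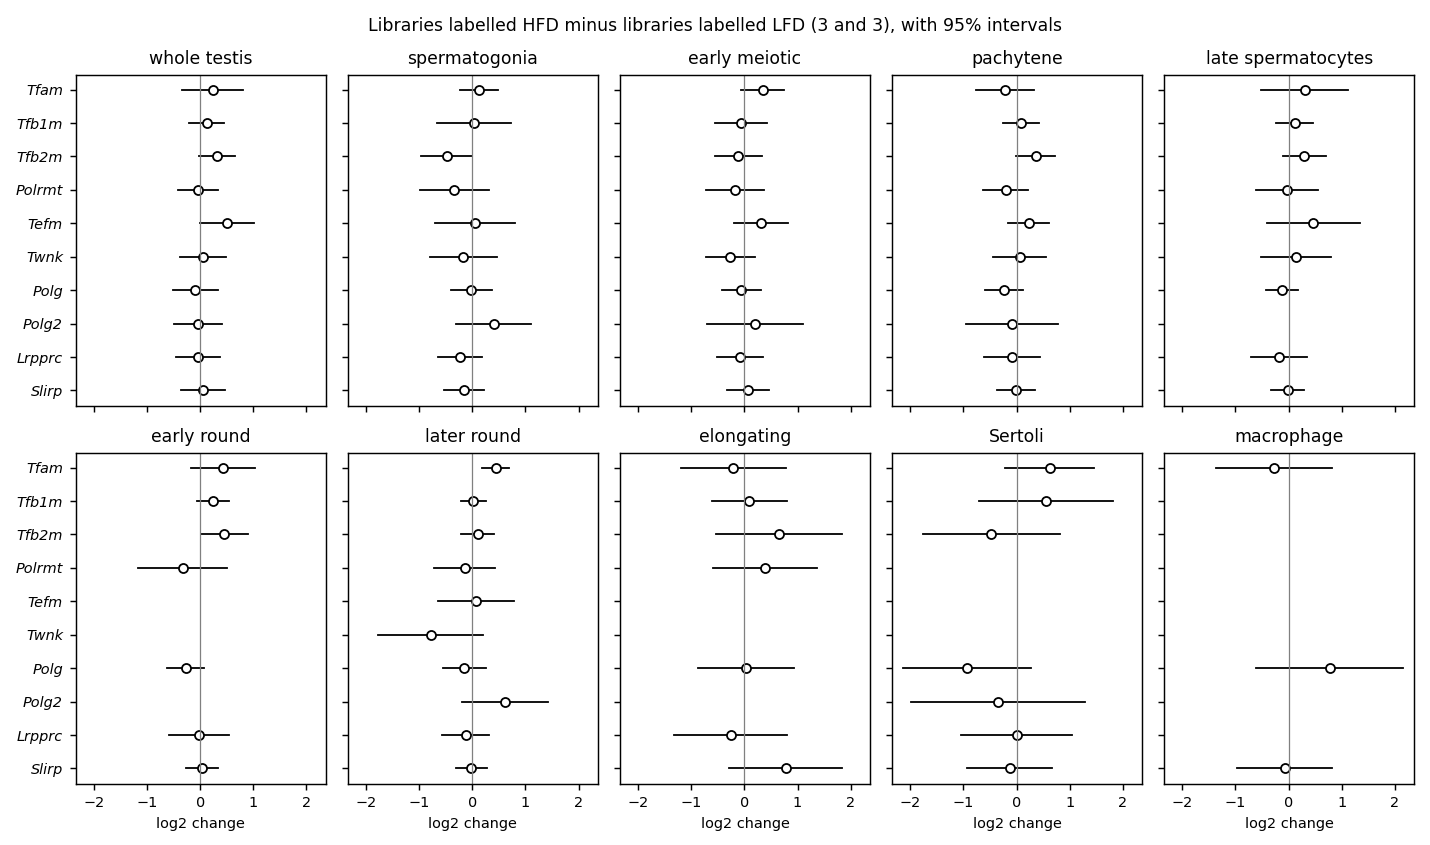
Log2 difference of each gene between the libraries labelled HFD and labelled LFD (3 and 3) with its 95% interval, in the whole testis and in 9 classes; genes that did not pass the filter on low counts have no point. No gene had an adjusted p under 0.05, and the interval of Tfam in later round spermatids (0.19 to 0.69) lies above 0 before adjustment.

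For the share of mitochondrial mRNAs by diet, 3 libraries against 3 cannot reach an exact permutation p below 0.1, so no test at the 7 stages could pass 0.05 (two-sided, raw p from 0.3 to 0.9, adjusted p = 0.9). The differences ranged from -0.439 percentage points in pachytene cells (4.29% ± 1.54 against 4.73% ± 2.10) to 0.925 in spermatogonia (7.18% ± 1.10 against 6.26% ± 0.732, n = 3 each). Within the pair of replicate 1 libraries the spermatogonia differed by -0.587 points, and over the other 4 by 1.68. In later round spermatids the shares were 0.155% ± 0.0236 and 0.190% ± 0.0350.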

How the data were processed

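Single-cell libraries of mouse testis were prepared on the 10x Genomics platform (kit version 2 per the labels, a later version in the methods). The authors aligned reads to mm10 and counted UMIs with Cell Ranger 6.0.1, and the 6 deposited matrices are raw UMI counts per gene and barcode. No strand setting is stated. Tfb1m, Tfb2m, Twnk, Polg, Polg2, Lrpprc and Slirp overlap other genes on the opposite strand. The study's filters (at least 200 and at most 40000 genes) removed 0 of 48939 barcodes. No doublets were removed. The 10 genes, the 49 other genes and the marker lists were chosen with earlier results of these data known. The genes named from the list of 49 are the 3 largest rising and falling calls per step, and likeness was ranked for Tfam, Polrmt and Lrpprc over genes of at least 10 CPM.

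Germ cell barcodes needed at least 5000 UMIs, 3 detected markers and a marker score that led the next stage by 0.1 (somatic classes: 0.5 and 5 marker UMIs). Of the germ cell barcodes, 1047 lay near the lead that was required. A stricter gate kept 7995 barcodes whose next score was at most 0.5 of the best. UMI counts were summed per class and library, and sums with under 20 barcodes were not tested. They were tested with edgeR 4.0.16 (R 4.3.3; quasi-likelihood, TMM, default filter), with the library as a block for stages. DESeq2 1.42.0 was an alternative. Calls had an adjusted p under 0.05. Shares were compared by exact sign-flip and permutation tests (Python 3.11.15, numpy 2.4.6). Tests of the difference between groups measure only the spread between these libraries. The share of free RNA per class was estimated from germ cell genes that the class should lack, relative to 35776 ungated barcodes with few UMIs, and limited to 50%. For mitochondrial mRNAs of later round and elongating spermatids it exceeded the measured total, so values with free RNA subtracted may remove too much at these stages. On simulated counts with 200 genes altered by 1 on the log2 scale, edgeR found 91.5% of them in the step from pachytene to later round spermatids (16770 genes), 85.5% by diet in the whole testis (20727 genes) and 99.0% by diet in later round spermatids (14643 genes). Of the genes not altered, 3, 4 and 9 were called. Apart from the altered genes, the simulated sums differed only in depth and by a random spread from edgeR's fitted trend. Differences in composition between the real libraries were not simulated, so the shares found may be lower in the real data. The altered genes had a mean of at least 1 CPM for the stage step and at least 5 CPM by diet. In later round spermatids Polrmt, Tefm, Twnk and Polg2 lay below 5 CPM, as did Tefm, Twnk and Polg2 in the whole testis. The shares found by diet do not cover these genes there. Promoter sequences are from RefSeq (GRCm38.p6) and gene models from GENCODE M21. Leydig, peritubular and stromal cells were not tested by diet.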

Additional observations from a re-analysis of the deposited data

Results flagged for a closer look

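Over the 6 libraries of a stage, 77 sets of values were screened for a library far from the others (Dixon's test at 95%), and 7 stood out, where chance gives about 1 in 20. Of these, 4 were the replicate 2 labelled HFD in elongating spermatids, in which free RNA was estimated at 50% of UMIs: Slirp (220 CPM, the others 34.2 to 56.9), Tfb2m (6.54, the others 1.05 to 1.85), Polg (12.4, the others 3.47 to 6.66) and Tefm (3.89, the others 0.22 to 1.26). The part of free RNA in these values was not tested further. Tfb1m in later round spermatids was 75.6 CPM in the replicate 3 labelled HFD (others 62.4 to 66.5). Tefm in early round spermatids was 3.00 CPM in the replicate 3 labelled LFD (others 1.07 to 1.76). Polg2 in early meiotic cells was 6.22 CPM in the replicate 1 labelled HFD (others 3.85 to 4.72).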

How the results depend on the processing

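Of 819 alternative values, 707 kept their direction and their side of the threshold. No member was called by diet under any alternative, the fits with the replicate block included. Deviations from the group mean correlated at 0.487, 0.0311 and 0.262 between the same-numbered libraries of replicates 1, 2 and 3. Between different numbers the correlations ran from -0.406 to 0.3. The replicate 1 pair had the highest value, and whether the numbers pair the libraries was not settled. With the block the whole-testis differences were 0.26 for Tfam, 0.32 for Tfb2m and 0.54 for Tefm. Tfam in the whole testis turned to between -0.08 and -0.02 without the replicate 1 labelled HFD or the replicate 3 labelled LFD, and ranged to 0.55 without the replicate 1 labelled LFD. The free RNA subtraction and the fits by replicate 1 batch were chosen after seeing the data. Counts under about 3 CPM limit what the last step can show. In elongating spermatids the measured level was above the free RNA estimate in 0 of 6 libraries for Polg, 2 for Tefm and 3 for Tfb2m. It was above in 4 for Polrmt, Twnk and Polg2, 5 for Lrpprc and Slirp, and 6 for Tfam and Tfb1m.

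At the step to pachytene, UMIs per barcode gave 5 members higher and 1 lower in place of 3 and 5, and Tfb2m at 0.31. Polrmt was -0.45 with DESeq2, -0.36 on total UMIs, -0.40 on total UMIs without the mitochondrially encoded genes and -0.21 with the stricter gate, where Tefm was -0.36, -0.27, -0.31 and -0.22. At the last step the members called higher were 4 with DESeq2 or the stricter gate and 1 on total UMIs, total UMIs without the mitochondrially encoded genes, UMIs per barcode or with free RNA subtracted, and those called lower were 8 on UMIs per barcode. On total UMIs, with or without the mitochondrially encoded genes, Polrmt was -0.57, Tefm -0.48, Polg2 -0.14 and Lrpprc -0.72. On UMIs per barcode they were -1.66, -1.62, -1.21 and -1.76, and Twnk -0.52. With free RNA subtracted Polrmt, Tefm, Polg2 and Lrpprc were -1.56, -1.07, -0.14 and -1.44, Twnk 0.36 and Polg -8.93. Tefm was -0.04 with the stricter gate and, with a replicate left out, between -0.32 (without 2 labelled HFD) and 0.39. Polg was 0.06 with DESeq2. Lrpprc was -0.06 with no filter, -0.02 without the 5% of barcodes with the most UMIs, and between -0.07 and 0.11 with a replicate left out. The cause of these changes was not tested.

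The mean mitochondrial share over barcodes gave a log2 ratio of 0.167 at the step to pachytene, and 0.962 at the last step (exact p = 0.0625). With a replicate left out, 5 libraries cannot go below an exact p of 0.0625: the ratios ranged from -4.80 to -4.53 for the step to later round and from 0.806 to 1.15 for the last. By diet, with a replicate left out, the share differed by -0.173 to 0.729 points in early meiotic cells, -1.44 to 0.650 in pachytene cells, -0.447 to 0.576 in late spermatocytes and -0.0282 to 0.0969 in early round spermatids. The change of the ratio to the 10 genes was -5.21 with the stricter gate at the second step, and at the last step -1.47 without Lrpprc and Slirp and 2.63 without Tfam.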
